A study of Mus musculus with 8 samples.

Results

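Cdo1, the mouse gene for cysteine dioxygenase, was followed through DNA methylation tables of colon organoids. It was taken as 1 of 21887 protein-coding genes. Its members were the 200 bp tiles overlapping the annotated gene plus 5 kb on either side, on chromosome 18 from 46708193 to 46733502 of GRCm38. That window touches 128 tile positions, and 8 of them were listed in at least 1 of the 8 deposited tables. The gene and its window were chosen from the methylation differences in these same tables, so the values at Cdo1 are given as a description, without a test.

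Cysteine dioxygenase oxidises cysteine to cysteine sulfinate. That product is the precursor of taurine, or is broken down further to sulfite and sulfate. The enzyme thereby draws on the same cysteine that cells use for glutathione. In human colorectal and other cancers, CDO1 is known for a CpG-rich gene start that gains methylation.

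The libraries were reduced representation bisulfite libraries, which read CpG-rich restriction fragments, from organoids grown out of the proximal colon of male mice about 40 days old. All mice carried 1 heterozygous BrafV600E allele that stays silent until Cre acts on it, so the empty-vector controls carry the unswitched allele too. The 8 libraries form 4 groups of 2, with organoid lines 1 and 3 in each. BrafV600E organoids had received Cre by lentivirus and were grown for 5 months, then for 3 weeks in Base medium, which has no stem-cell niche factors. Their controls had received the vector backbone alone (EV) and were grown for 5 months with a further 3 weeks in full medium. Long-cultured EV organoids were kept in full medium for 12 months in line 1 and 14 months in line 3, and their controls were EV organoids of the same lines at 2 months.

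Each deposited table compares 1 library with 1 library of the same line, so the lines are the only replicates, and the difference between them is the only replicate error. Listed tiles have a q-value no higher than 0.01 and a difference of 20 percentage points or more. No read counts were used here, so depth is unknown, and an unlisted tile was either short of these limits or not covered. A bulk level does not tell more methylated cells from more methylation in each cell. BrafV600E and Base medium change together, so they cannot be told apart. The labels conflict for 2 libraries, and titles were followed: the line 1 BrafV600E library has line 3 in its source name, and the line 3 library titled 14 months carries a culture time of 2 months. Cell identity was not checked, since the tables hold no expression values.

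With BrafV600E in Base medium, Cdo1 gained methylation in both lines, and in long-cultured EV organoids it lost methylation in both lines. In the authors' deposited tables the 6 line 1 gains averaged 89.7 points and the 8 line 3 gains 81.4 points. The single line 1 loss was -50.3 points and the 4 line 3 losses averaged -36.7 points in the authors' deposited tables. The line 3 gains rest on libraries without a label conflict. The line 1 gains rest on the BrafV600E library with line 3 in its source name, so the likeness of the lines with BrafV600E depends on its title. All 14 entries with BrafV600E were gains and all 5 entries with long culture were losses, so the remaining 4 of the 8 tables held 0 tiles of Cdo1. Among all listed tiles, gains made up 67.5% and 40.4% with BrafV600E in lines 1 and 3, and 40.9% and 71.9% with long culture. In line 3, therefore, Cdo1 moved against the majority direction of the tiles in both comparisons, and in line 1 with it in both.

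**Figure D1:**
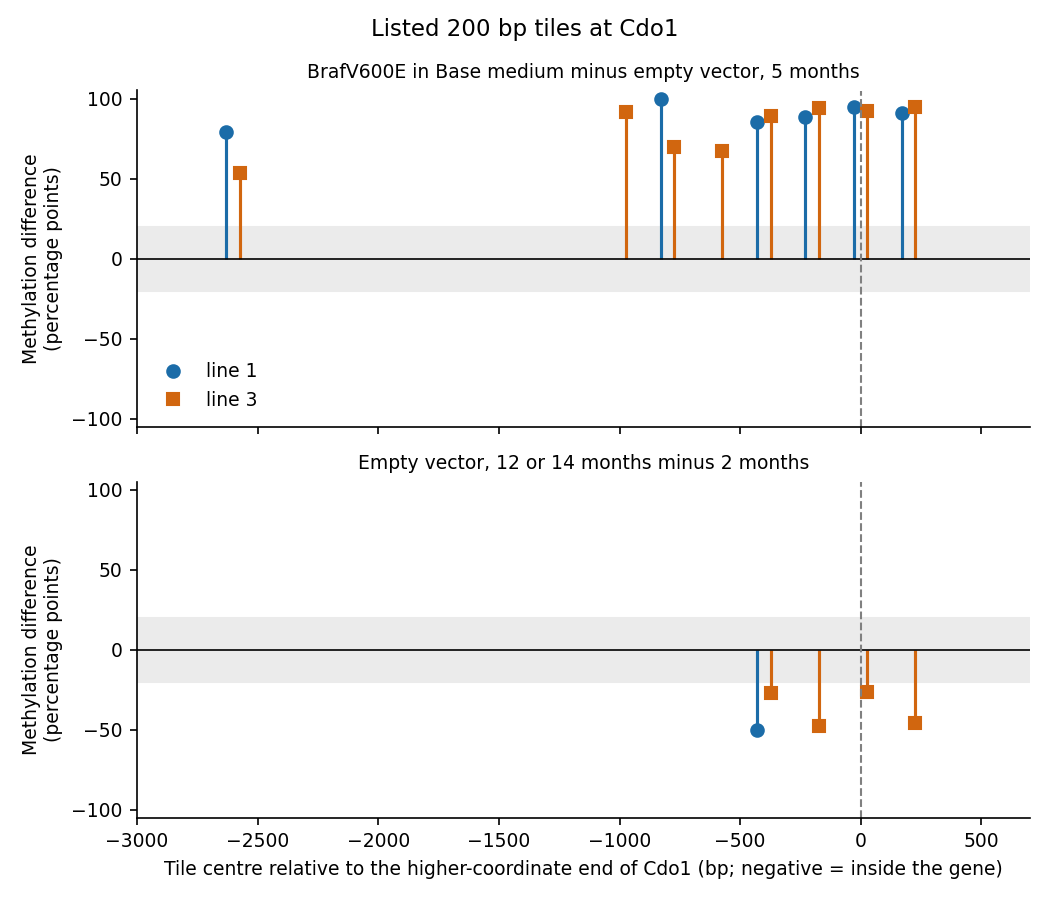
Methylation difference (percentage points, y axis) of each listed 200 bp tile at Cdo1 against the distance of its centre from the higher-coordinate end of the gene (bp, x axis), for BrafV600E in Base medium minus EV (upper) and long culture minus 2 months (lower). Circles are line 1, squares line 3, and the grey band is the range under 20 points that the tables leave out. Points of 1 tile are set slightly apart. All BrafV600E points lie above 0 and all long-culture points below 0.

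The listed tiles lay at one end of the gene. Cdo1 is annotated from 46713193 to 46728502 on chromosome 18 (15310 bp). Its exons and strand were not used here, so tiles are placed only relative to the end with the higher coordinate. In line 3, 7 consecutive tiles formed a run of 1400 bp (chr18:46727401-46728800) that crosses this end. In line 1, the unbroken run at this end was 4 tiles or 800 bp (chr18:46728001-46728800), of which 502 bp are inside the annotated gene. An eighth tile, chr18:46725801-46726000, was 2502 bp inside the gene, and the 1400 bp between it and the run held 0 listed tiles. The rule reaches 5 kb beyond the gene, yet the nearest listed tile outside it was 81.9 kb above the gene, at 58.9 points, and the nearest below was 117 kb away, at 53.8 points, both in the line 3 BrafV600E comparison of the authors' deposited tables.

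At the inner tile, line 1 gained 78.8 and line 3 gained 53.2 points in the authors' deposited tables. At chr18:46727401-46727600, listed only in line 3, the gain was 91.7 points in the authors' deposited table. At chr18:46727601-46727800 line 1 gained 100 and line 3 gained 69.7 points in the authors' deposited tables. A difference of 100 points leaves full methylation in BrafV600E and none in EV among the calls counted. The next tile, chr18:46727801-46728000, was again listed only in line 3, at 66.9 points in the authors' deposited table.

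Across the run that both lines share, the lines lay close together. At chr18:46728001-46728200 line 1 gained 85.3 and line 3 gained 89.0 points in the authors' deposited tables. The tile from 46728201 gained 88.3 and 93.9 points, and the tile from 46728401, which spans the annotated end, 94.8 and 92.5 points, for line 1 and line 3 in the authors' deposited tables. The outermost tile, from 46728601, gained 91.2 points and 94.5 points for line 1 and line 3 in the authors' deposited tables. Over these 4 tiles line 1 averaged 89.9 and line 3 averaged 92.5 points, and line 3 minus line 1 was between -2.33 and 5.55 points. At the inner tile and at chr18:46727601-46727800, line 3 gained less, with line 3 minus line 1 at -25.6 and -30.3 points.

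These gains were among the larger ones listed. For comparison, the listed gains of line 1 had a median of 42.8 points and those of line 3 of 44.1 points in the authors' deposited tables. At the 4 tiles of the shared run, between 1.79% and 4.67% of the 10332 gained tiles of line 1 showed a larger gain, and between 2.75% and 5.01% of the 12089 of line 3. The smallest gain of either line was at the inner tile, where 35.7% of the gained tiles of line 3 showed a larger gain. The smallest q-value of Cdo1 was 1.07e-71, at chr18:46728001-46728200 in line 1 in the authors' deposited table, and 44 gained tiles of that table had a smaller one. In line 3 it was 1.68e-57, at chr18:46728401-46728600, with 246 gained tiles below it. These q-values compare a pair of libraries and not the conditions.

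Long culture changed the same end of the gene in the opposite direction. At chr18:46728001-46728200, the only Cdo1 tile listed in all 4 comparisons, the difference at 12 months was -50.3 points for line 1 and at 14 months -27.0 points for line 3 in the authors' deposited tables. Line 3 alone was listed at the next 3 tiles, with -47.6 points from 46728201, -26.5 points from 46728401 and -45.7 points from 46728601 in the authors' deposited table. The q-values of these losses lay between 2.38e-16 and 9.16e-05 in line 3, and the line 1 loss had a q-value of 5.05e-16, in the authors' deposited tables. The 4 tiles further inside the gene were listed only with BrafV600E. The losses were near the median listed loss or smaller. The listed losses of line 1 and line 3 had medians of -47.2 and -46.2 points per the authors' deposited tables. A larger loss was shown by 43.5% of the lost tiles of line 1. In line 3 a larger loss was shown by 47.4% to 88.3% of the lost tiles, with 87.4% at the tile both lines list. The line 3 direction rests on the title of its 14-month library; line 1, whose labels do not conflict in that comparison, has the same direction at the tile both lines list.

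Because a methylation level lies between 0 and 100%, each difference limits the measured levels of both libraries. A gain of 85.3 points at chr18:46728001-46728200 in line 1 leaves at least 85.3% in BrafV600E organoids and at most 14.7% in EV organoids at 5 months. The loss of -50.3 points at that tile leaves at most 49.7% at 12 months and at least 50.3% in EV organoids at 2 months. Taken by their titles, the empty-vector libraries of line 1 at 2 and at 5 months differ by at least 35.6 points at this tile, with the higher level at 2 months. In line 3 the same holds at all 4 tiles listed in both comparisons, with the 2-month level above the 5-month level by at least 16, 41.5, 19 and 40.2 points going outward. The largest 5-month level allowed at these 4 tiles was 11%, and the smallest 2-month level allowed was 26.5%. No table used here compares the 2-month with the 5-month controls, so this difference has no q-value. With the line 3 titles of 14 and 2 months exchanged, the line 3 limits would set the 14-month library, not the 2-month one, above the 5-month control. That exchange goes further than the conflicting label, which gives a culture time of 2 months only to the library titled 14 months. Whether any EV library carries the label of another was not tested.

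**Figure D2:**
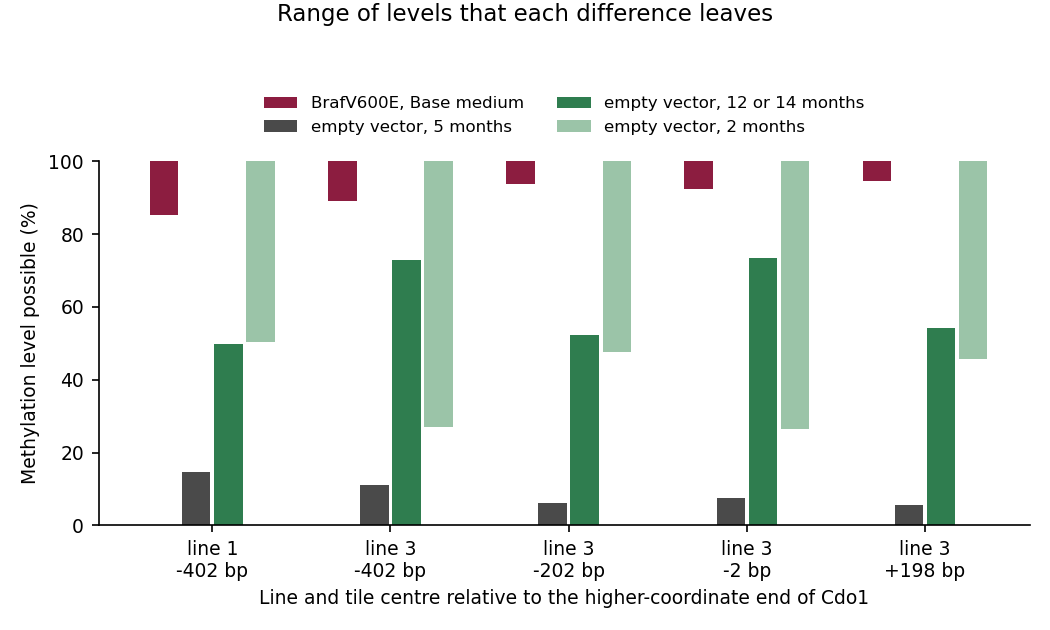
Range of methylation levels (%, y axis) that the deposited differences allow in each library, for the 5 line and tile combinations listed in both comparisons (x axis: line and position of the tile centre relative to the end of Cdo1). Bars span allowed values and are not measured levels or errors. Within each combination, the bar of EV organoids at 5 months ends below the start of the bar of EV organoids at 2 months.

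Across the genome, tiles gained with BrafV600E and lost with long culture were not rare within a line. Fewer tiles had this pattern in both lines, which is a stricter demand and is not read as a trait of Cdo1. Of the tiles listed in both comparisons of a line, 38.9% of 2384 in line 1 and 13.3% of 6964 in line 3 had this gain and loss. For 30.9% of those 928 tiles in line 1 and 43.1% of those 929 in line 3, the differences force a higher level in EV organoids at 2 than at 5 months, as they do at 1 of 1 Cdo1 tile in line 1 and 4 of 4 in line 3. Among the tiles with such a forced difference, 26.1% of 287 in line 1 exceeded that of the Cdo1 tile, and in line 3 between 24% and 60.3% of 400 exceeded those of its 4 Cdo1 tiles. Of 594 tiles listed in all 4 comparisons, 25 (4.21%) gained in both lines with BrafV600E and lost in both lines with long culture. Ordered by the smaller of their BrafV600E gains, the Cdo1 tile came before the other 24, and by the smaller of their long-culture losses it was at place 21 of 25. With the line 3 titles of 14 and 2 months exchanged, an alternative chosen after the data were seen, the line 3 share would be 39.96% in place of 13.3%. Of the 594 tiles, 86 (14.5%) would then have the pattern, and the Cdo1 tile would not.

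Counted by gene plus 5 kb, 4.66% of protein-coding genes had gains and no losses in both lines with BrafV600E, and 1.39% had losses and no gains in both lines with long culture. The combination of both was found for 30 genes (0.137%; with the line 3 titles exchanged, 66 genes or 0.302%, without Cdo1), among them Cdo1 and its neighbour Atg12, which encodes an autophagy conjugation protein. The nearer edge of the annotated Atg12 span, by coordinate and not by strand, is 3915 bp beyond the end of Cdo1. All 5 Atg12 tiles in line 1 and all 7 in line 3 with BrafV600E are Cdo1 tiles and lie outside the Atg12 span. Those changes lie closer to Cdo1, of which 7 of the 8 tiles overlap the annotated span, but they cannot be assigned to either gene by position alone. After these genes, the next in the order of the smaller BrafV600E mean were Map3k14, a kinase of the non-canonical NF-kappaB pathway, at 57.9 and 80.03 points, and Ccdc85c at 81.8 and 55.6 points, for line 1 and line 3 in the authors' deposited tables; both were picked after their values were seen.

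Among 1185 genes with at least 3 tiles in each line, Cdo1 was at place 3 in the order of the smaller of the 2 lines' mean BrafV600E differences. The median of that smaller mean over all 1185 genes was -5.90 points. Znfx1, which encodes an RNA helicase of antiviral defence, was ahead with 89.4 and 89.3 points over 4 tiles in each line of the authors' deposited tables, and Atg12 with the shared tiles. Fhdc1, a formin-family gene, followed with 80.1 and 88.9 points over 3 tiles in each line of the authors' deposited tables. Both means exceeded 80 points in only 4 of the 1185 genes: Znfx1, Atg12, Cdo1 and Fhdc1. With line 1 alone Cdo1 was at place 6 of 1598 genes and with line 3 alone at place 24 of 2696, while a minimum of 1 tile put it at 19 of 4404.

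**Figure D3:**
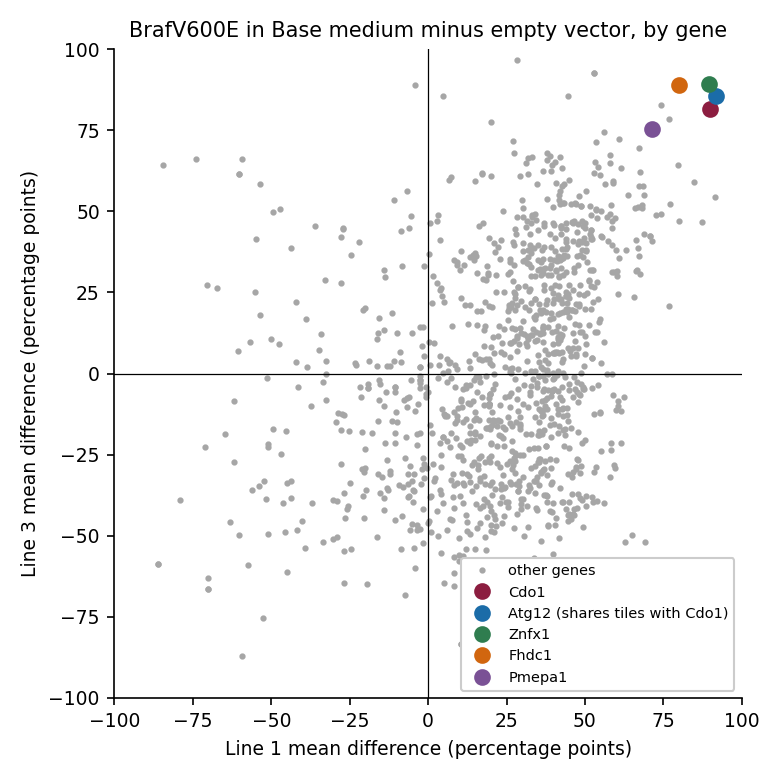
Mean methylation difference of BrafV600E in Base medium minus EV (percentage points) in line 1 (x axis) and line 3 (y axis) for 1185 genes with at least 3 tiles in each line. Each point is a gene; coloured points are named in the legend. Cdo1 sits in the upper right corner at 89.7 and 81.4 points, next to Atg12, Znfx1 and Fhdc1.

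The pattern of Cdo1 over the 3 comparisons in which it has at least 3 tiles was matched loosely by other genes. Among 959 genes with as many tiles in those comparisons, Pmepa1, a feedback inhibitor of TGF-beta signalling, was closest, with a root mean square difference of 11.4 points. Atg12, at 2.65 points, was left out because its tiles in these comparisons are Cdo1 tiles. The means of Pmepa1 were 71.4, 75.3 and -40.9 points with BrafV600E in line 1, BrafV600E in line 3 and long culture in line 3 of the authors' deposited tables. In the line 1 long culture table, however, Pmepa1 averaged 27.5 points over 2 gained tiles and 1 lost tile of the authors' deposited table, against -50.3 points for Cdo1. Glis2, a zinc finger transcription factor gene, was at a distance of 23.0 points and had 0 tiles with long culture in line 1.

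The next were Ank3, which encodes an ankyrin of the membrane skeleton, at 29.5 points, the Wnt receptor gene Fzd5 at 30.7, the Notch coactivator gene Maml3 at 31.4 and the gap junction gene Gjb6 at 31.8. Fzd5 had the Cdo1 signs in all 4 comparisons, at 39.4 and 64.4 points with BrafV600E and -34.0 and -38.5 points with long culture for line 1 and line 3 in the authors' deposited tables. Ank3 averaged 49.8 points with long culture in line 1 and Gjb6 averaged 3.88 points with long culture in line 3 of the authors' deposited tables, which is the opposite sign to Cdo1.

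Other tiles were counted within 500 kb of the end of Cdo1 and more than 5 kb from the gene. With BrafV600E, 2 were listed in line 1 and 9 in line 3. With long culture, 1 was listed in line 1 and 4 in line 3. No genome-wide density is given beside these counts, so they are not read as few or many. Of the 5 protein-coding genes on either side, Ccdc112, Fem1c, Ticam2, Ap3s1, Arl14epl and Commd10 had 0 tiles within 5 kb in any table. Tmed7 and Eif1a share 1 tile, which gained 53.8 points with BrafV600E in line 3 of the authors' deposited table. Lvrn, which encodes a membrane aminopeptidase, had 1 lost tile with BrafV600E in line 1, 2 gained and 1 lost tile in line 3, and 2 gained tiles with long culture in line 3.

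**Figure D4:**
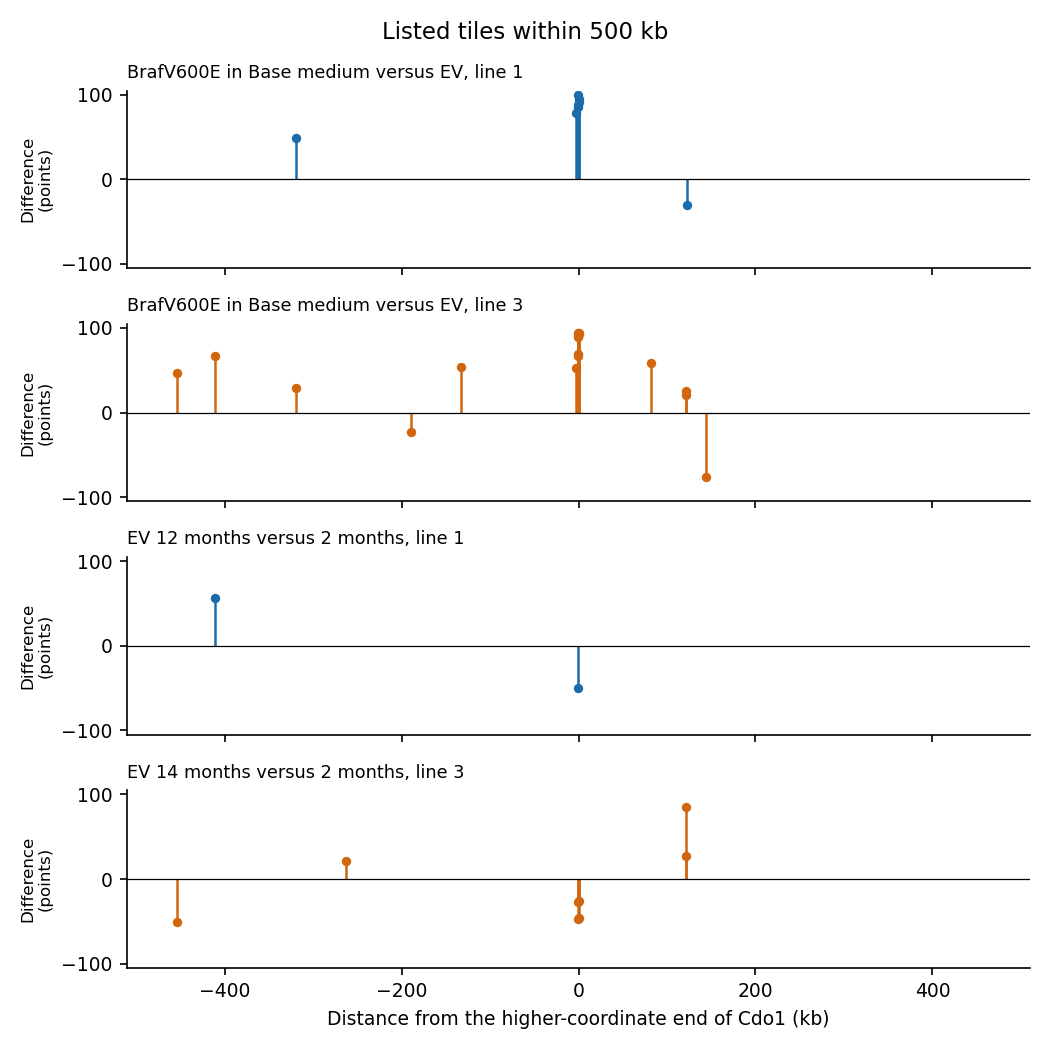
Methylation difference (percentage points, y axis) of every listed tile within 500 kb of the higher-coordinate end of Cdo1 (kb, x axis), with a panel for each within-line comparison. Each stem is a tile. The stems at 0 are the Cdo1 tiles, and 1 to 9 further tiles per comparison are spread over the rest of the interval.

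Other genes of cysteine, taurine and glutathione metabolism showed no common direction. All 63 genes of the list were found in the gene table, and 35 had a listed tile within 5 kb. The share of all genes with such a tile is not given here, so the 35 are not read as many or few. With BrafV600E, 8 had gains only in line 1 (12.7% of the list, 14.5% of all protein-coding genes) and 7 had losses only (11.1% against 6.57%). In line 3, 12 had gains only (19.0% against 13.3%) and 9 had losses only (14.3% against 13%). Gains in both lines with no loss were found for 4 genes (6.35% against 4.66%) and losses in both with no gain for 2 (3.17% against 1.86%). Taking either line, 16 genes had gains and no losses (25.4% against 14.6%) and 13 had losses and no gains (20.6% against 12.1%).

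Csad encodes the decarboxylase that takes cysteine sulfinate towards taurine, and it gained 54.9 points at 1 tile with BrafV600E in line 1 of the authors' deposited table and was not listed elsewhere. Ado, the other thiol dioxygenase of taurine synthesis, had 0 tiles in any table. The taurine transporter gene Slc6a6 gained with BrafV600E 53.2 and 30.6 points at 1 tile each for line 1 and line 3 in the authors' deposited tables. Gadl1, a decarboxylase related to Csad, was at -56.5 points in line 1 and, over 1 gained and 2 lost tiles, at -23.3 points in line 3 with BrafV600E in the authors' deposited tables. It also lost methylation with long culture, at -49.6 points for the line 1 tile and a mean of -68.1 points for 3 line 3 tiles in the authors' deposited tables.

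Downstream of cysteine sulfinate, the sulfite oxidase gene Suox gained 37.3 and 32.0 points with BrafV600E for line 1 and line 3 in the authors' deposited tables, at 1 tile in each. Suox also gained 37.0 points at 1 tile with long culture in line 1 of the authors' deposited table. Mpst and Tst, sulfurtransferase genes that lie together and share their listed tiles, gained 29.0 points with BrafV600E and 50.7 points with long culture, both for line 3, in the authors' deposited tables. On the supply side, Cbs, the entry enzyme of transsulfuration, was at -53.6 points over 2 tiles with BrafV600E in line 3, and gained 25.2 and 45.9 points with long culture for line 1 and line 3 in the authors' deposited tables. Cbs thus carried the opposite signs to Cdo1 in line 3. Cth, which releases cysteine from cystathionine, was at -26.8 points at 1 tile with BrafV600E in line 3 of the authors' deposited table.

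Among the regulators, Keap1, whose product marks the antioxidant factor Nrf2 for destruction, gained 48.0 points with BrafV600E over 2 line 1 tiles and 51.5 points over 4 line 3 tiles in the authors' deposited tables. With long culture Keap1 also gained, by 58.6 points at 1 tile in line 1 of the authors' deposited table. Nfe2l2, which encodes Nrf2, lost methylation with BrafV600E at 1 tile in each line, with values of -25.0 and -40.1 points in the authors' deposited tables. It was not listed with long culture. The glutathione peroxidase gene Gpx3 gained 55.3 and 77.6 points at 1 tile in each line with BrafV600E, and 55.3 points over 2 tiles with line 3 long culture in the authors' deposited tables. The membrane dipeptidase gene Dpep1, which acts in glutathione breakdown, was with BrafV600E at -47.2 points for the single line 1 tile and at a mean of -32.8 points for 4 line 3 tiles in the authors' deposited tables. With long culture Dpep1 averaged 3.08 points over 1 gained and 1 lost tile of line 1 and -60.4 points over 2 lost tiles of line 3 in the authors' deposited tables.

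With long culture, 6 list genes had gains only in line 1 (9.52% against 6.28% of all genes) and 3 had losses only (4.76% against 9.12%). In line 3, 11 had gains only (17.5% against 16.1%) and 7 had losses only (11.1% against 7.78%). In both lines, gains without losses were found for Slc6a13 and Cbs (3.17% against 3.27%). Taking either line, 15 genes had gains and no losses (23.8% against 13.3%) and 7 had losses and no gains (11.1% against 10.3%). Gadl1 was the only list gene with losses and no gains in both lines with long culture, the direction of Cdo1 (1.59% against 1.39%). Gains only in both lines with BrafV600E combined with losses only in both lines with long culture were found for 0 of the 63, where 0.137% of all genes had them, so nothing can be read from this 0. The list was written with earlier results on Cdo1 known, and many of its genes had 1 tile, so single values rest on little data.

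**Figure D5:**
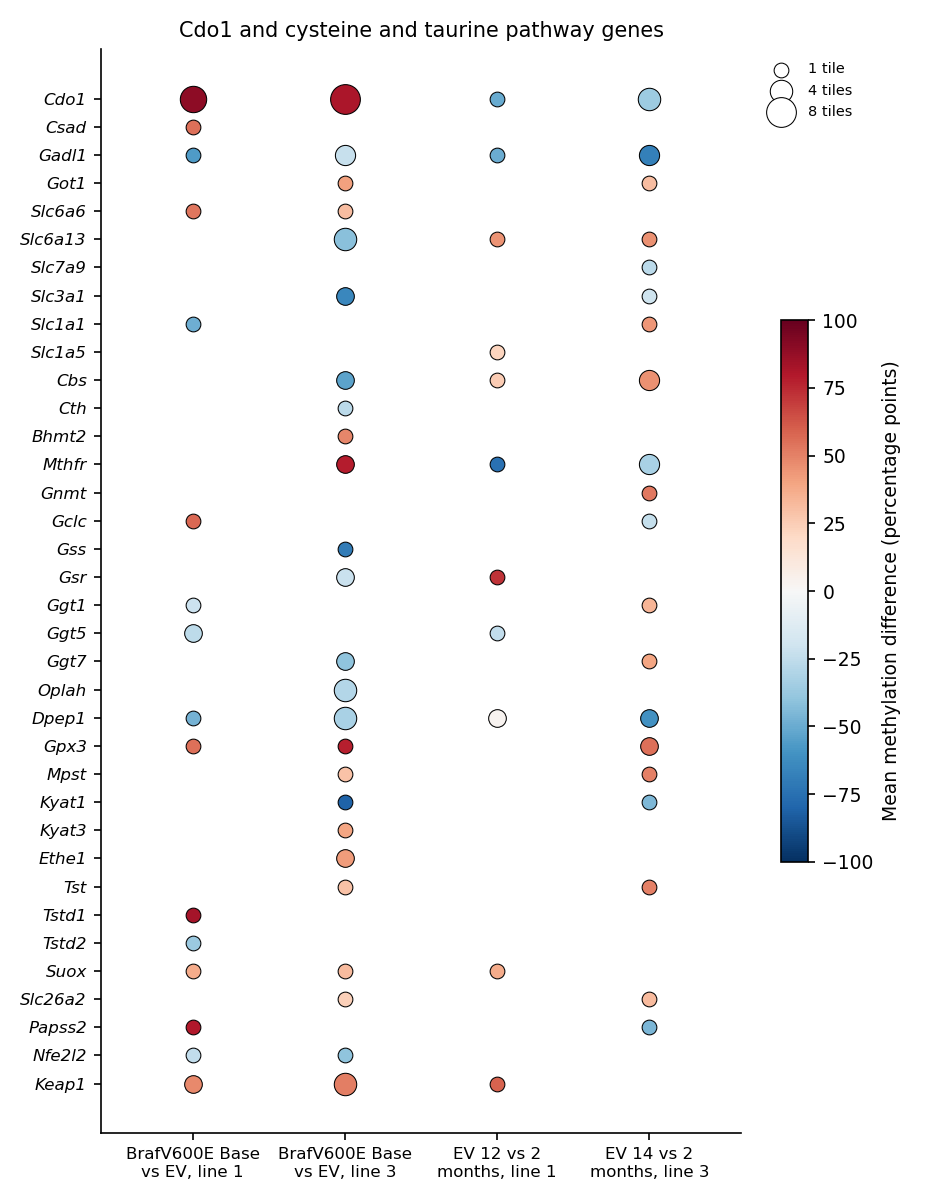
Mean methylation difference (colour, percentage points) of Cdo1 and the 35 pathway genes with a listed tile, in the 4 within-line comparisons (x axis). Dot area grows with the number of tiles, and an empty position means that no tile was listed. Cdo1, in the top row, is dark red with BrafV600E in both lines and blue with long culture in both lines; the other rows mix both colours.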

How the data were processed

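Sequencing was 50 bp single-end on an RRBS protocol, per the labels. The submitters' processing notes name methylKit 1.7.4, Bismark 0.14.3, Trim Galore 0.4.4, FastQC 0.11.7 and the build GRCm38; no source used here gives their settings. The 8 deposited tables hold, per the file headers, 200 bp tiles with p-value, q-value and a signed score, which is the difference in methylation in percentage points. From the deposited values, tile differences were copied, means over tiles were computed, and limits on levels were set by subtraction from 100%, with Python 3.11.15 and pandas 2.3.3; window assignment was tested on simulated data. Genes came from a RefSeq table of GRCm38.p6. Named genes were Cdo1, the 6 genes most like it (Atg12, which shares its tiles, left out), 5 neighbours per side and list genes with tiles; the members and lists were chosen with earlier results of these data known. Alternatives were windows of 1 and 10 kb, a minimum of 40 points, q under 0.001, medians, shared tiles, a minimum of 1 or 5 tiles, each line on its own and, added after the data were seen, exchanged line 3 titles. No test across samples was made.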

Additional observations from a re-analysis of the deposited data

How the results depend on the processing

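Of 56 alternative values, 43 stayed within the spread between the lines or, for counts and places, within 1.5 times, and 0 reversed. The exchanged line 3 titles were applied to tile and gene counts only. They were not applied to the Cdo1 means, where they would turn the sign of the line 3 long-culture values. Windows of 1 or 10 kb and q under 0.001 left every Cdo1 mean as it was, because they kept the same tiles. No further tile was listed within 10 kb of the gene, and every Cdo1 q-value was below 0.001. Leaving out 1 of the 2 lines also keeps a mean over the lines within their spread by construction. The 43 values are therefore not a measure of how robust the Cdo1 values are. The line 3 BrafV600E mean became a median of 90.4 points. The line 3 long-culture mean became -46.6 points with tiles of at least 40 points and -27.0 points at the tile listed in both lines; with at least 40 points 0 such shared tiles remained. Cdo1 went to place 19 with at least 1 tile per line, and leaving out a line gave places from 6 to 24, so the place depends on using both lines. With long culture, Cdo1 had too few tiles in line 1 for a place, and with 1 tile it was at 161 of 3010 from the largest loss. Leaving out a line gave Cdo1 means from 81.4 to 89.7 points with BrafV600E and from -50.3 to -36.7 points with long culture. Pathway genes with gains only numbered 16 of 63 with BrafV600E and 15 with long culture, where 14.6% and 13.3% of all protein-coding genes had them. Without line 1 they numbered 12 and 11 (13.3% and 16.1% of all genes), and without line 3 they numbered 8 and 6 (14.5% and 6.28%). At 40 points or more they numbered 9 with long culture (11.6% of all genes). The counts without a line or at 40 points cover fewer tables or tiles. The 3 tile and gene counts with the line 3 titles exchanged, given above, were the ones added after the data were seen. No paired analysis was possible because the tables give differences already paired within a line, without the levels that fits with and without that pairing need. Over the lines the Cdo1 means averaged 85.6 points (SD 5.88) with BrafV600E and -43.5 points (SD 9.60) with long culture (n = 2). No test was made because Cdo1 was chosen from these values. The BrafV600E SD takes the line 1 BrafV600E library by its title. The long-culture SD sets 1 tile of line 1 against 4 tiles of line 3. At the tile both lines list with long culture, line 3 minus line 1 was 23.3 points.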

Other observations

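The 25 tiles that gained methylation in both lines with BrafV600E and lost it in both lines with long culture lay near few genes in common. Beside Cdo1 they included a tile within 5 kb of Eml1, which encodes a microtubule-binding protein, at 75.0 and 62.5 points with BrafV600E and -68.9 and -66.7 points with long culture for line 1 and line 3 in the authors' deposited tables. A tile at the lipoxygenase gene Alox15 had gains of 66.7 and 58.0 points and losses of -90.9 and -60.0 points, likewise from the authors' deposited tables. Others lay near Trib3, a pseudokinase gene of the stress response, at 44.1 and 70.0 points and at -65.0 and -51.6 points, and near the matricellular gene Ccn1, at 43.7 and 68.4 points and at -45.7 and -80.3 points, both from the authors' deposited tables. Of the 25 tiles, 2 lay at Ddr1, a collagen receptor gene, and 1 lay within 5 kb of both Hoxd10 and Hoxd11. These genes were picked after their values were seen.

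The differences forced a gap between the EV controls of 2 and 5 months at many other tiles, in both directions. In line 1, 287 tiles must have been higher at 2 than at 5 months and 69 lower; in line 3, 400 must have been higher and 785 lower. The median forced gap was 20.5 points for the 287 tiles and 21.8 points for the 400. These counts cover only tiles listed with opposite signs in both comparisons of a line, and levels of the controls were not used here.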
